A study of Mus musculus with 39 samples.

Results

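The growth hormone, STAT5 and IGF1 axis was followed through 10 genes, chosen by name with earlier results of these data known. All 10 symbols were found among the 54735 genes tabulated for liver and for spleen. They are the growth hormone receptor Ghr, the transcription factors Stat5a and Stat5b, the secreted products Igf1 and Igfals, the feedback inhibitors Cish and Socs2, the repressors Bcl6 and Cux2, and the homeobox factor Onecut1. RNA was sequenced from both organs of C57BL/6 mice aged 4 weeks, either wild type or knockout for the nuclear receptor SXR/PXR (gene Nr1i2). They had been exposed perinatally either to the polychlorinated biphenyl PCB-153 (about 54 µg/kg/day) or to its vehicle DMSO. Liver groups held 5 libraries each (WD, wild type with vehicle; WP, wild type with PCB-153; KD, knockout with vehicle; KP, knockout with PCB-153), and spleen groups held 5 except for 4 in WD, which gave 39 libraries. The labels give no sex, litter, dose per animal or form of the knockout allele, and do not state that libraries came from separate animals, so p-values reflect the spread among libraries, which may be technical. Livers and spleens counted below are libraries.

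Growth hormone binds GHR on hepatocytes, which activates the kinase JAK2 and, through it, STAT5A and STAT5B. STAT5 dimers bind DNA at a short palindrome and switch on Igf1, Igfals (the acid labile subunit that keeps IGF1 in the circulation) and the inhibitors Cish and Socs2, which damp the receptor. In rodents the hormone is secreted in pulses in males and more continuously in females, and this pattern sets the sex-biased genes of the liver: BCL6 is a repressor that is more abundant in male liver and competes with STAT5, CUX2 is a repressor typical of female liver, and ONECUT1 (HNF6) is a liver homeobox factor whose binding sites resemble those of CUX2.

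In GENCODE M21 on GRCm38 the genes lie on 7 chromosomes: Ghr at chr15:3317760-3583492, Stat5b and Stat5a side by side at chr11:100780731-100850724 and chr11:100859351-100885169, and Igf1 and Socs2 at chr10:87858265-87937042 and chr10:95385362-95417180. Igfals lies at chr17:24865997-24882010, Cish and Onecut1 at chr9:107296026-107302784 and chr9:74861921-74891781, Bcl6 at chr16:23965052-23988852 and Cux2 at chr5:121856366-122050102. Counts cover each gene as a whole and do not separate exons or transcripts.

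Promoter sequences were taken from RefSeq on GRCm38.p6, from 250 bases before to 50 after each start site. They had 16 entries for 9 of the 10 genes, with none for Socs2. The STAT5 palindrome TTCNNNGAA, which reads alike on both strands, was searched in each, and 5 entries of 3 genes held it: Cish, Bcl6 and Igfals. Of the 32851 promoters in the same table, 8.3% held at least 1 match, 0.46% at least 2 and 0.03% at least 3. For each of these 3 genes the entry with the most matches is printed (for Igfals, where 2 entries had 1 match each, that with the match nearer to its start), and capitals mark the matches. The Cish entry (chr9:107296409-107296708, plus strand) had 2 matches beginning at positions 1 and 12 counted from the first transcribed base. The Bcl6 entry (chr16:23981234-23981533, minus strand) had 3, beginning 168, 122 and 88 bases before the start, and its other entry had 1. The Igfals entry (chr17:24877981-24878280, plus strand) had 1, beginning 58 bases before the start.
Cish: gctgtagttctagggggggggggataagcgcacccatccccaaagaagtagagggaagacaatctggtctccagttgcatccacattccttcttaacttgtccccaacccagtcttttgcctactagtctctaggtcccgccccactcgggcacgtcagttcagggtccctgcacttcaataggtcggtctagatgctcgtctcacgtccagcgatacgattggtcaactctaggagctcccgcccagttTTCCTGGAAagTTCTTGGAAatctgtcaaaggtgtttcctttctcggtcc
Bcl6: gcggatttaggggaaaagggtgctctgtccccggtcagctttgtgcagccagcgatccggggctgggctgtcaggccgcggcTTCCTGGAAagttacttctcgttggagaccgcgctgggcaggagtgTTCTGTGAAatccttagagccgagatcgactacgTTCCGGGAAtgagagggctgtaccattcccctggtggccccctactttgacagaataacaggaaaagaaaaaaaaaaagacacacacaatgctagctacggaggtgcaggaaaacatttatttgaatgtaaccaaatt
Igfals: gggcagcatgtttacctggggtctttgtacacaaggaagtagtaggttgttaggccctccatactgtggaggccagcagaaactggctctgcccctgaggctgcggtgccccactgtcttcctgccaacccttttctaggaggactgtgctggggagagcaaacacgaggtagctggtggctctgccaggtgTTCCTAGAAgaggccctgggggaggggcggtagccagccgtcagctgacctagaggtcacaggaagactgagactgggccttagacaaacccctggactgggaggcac
No match lay in the entries of Ghr, Stat5a, Stat5b, Igf1, Cux2 or Onecut1, which says only that these letters are not in those windows. ATCGAT, a motif bound by CUX and ONECUT factors, occurred in 1 of the 2 Cux2 entries and in 0.93% of all promoters, and ATCAAT on either strand occurred in none of the 16 and in 7.54% of all promoters. These matches describe sequence and were not tested for binding.

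Libraries held 15.23 to 28.65 M reads in liver and 16.1 to 29.52 M in spleen. Levels are given as normalised reads, the deposited counts divided by 1 size factor per library. Nr1i2, the targeted gene, was lower in knockout liver under vehicle (KD 449 to 969, WD 1328 to 1781, limma adjusted p = 0.00415), while KP (612 to 1155) and WP (1019 to 1939) overlapped (adjusted p = 0.111). In spleen Nr1i2 was instead higher in labelled knockout, with 42.9 to 62.8 normalised reads in 10 libraries. The 9 libraries labelled wild type had 0 to 2.27. Knockout liver also kept Nr1i2 reads and the form of the allele is not given, so these reads alone do not settle the labels. Spleen genotypes are therefore given as labelled throughout. Whether the 2 labels were exchanged was not tested. An exchange would turn the sign of each spleen difference between genotypes and of the interaction. It would also make KP against KD the comparison of PCB-153 with vehicle in wild type, and WP against WD that in knockout. Y-linked Ddx3y, Kdm5d, Eif2s3y and Uty, looked up after the data were seen, had at least 79.4 normalised reads in every library, and Xist at most 14.4. Summed markers of hepatocytes (8 genes) spanned 1844581 to 2562460 normalised reads in liver and 335 to 12797 in spleen.

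Per kilobase of annotated exon, the secreted products and the receptor led in liver and the STAT5 factors in spleen. In liver, mean normalised reads per kilobase were 869.9 for Igf1, 544.2 for Ghr and 473.8 for Igfals, followed by Stat5b at 180.8. The remaining liver means lay between 84.5 for Bcl6 and 14.3 for Cux2, with Socs2 (76.7), Onecut1 (52.9), Cish (49.4) and Stat5a (34.2) in between. The order of these lower genes differed between groups: group means per kilobase were 172.5 in WD and 41.3 in KP for Bcl6, 92.8 in WP and 32.0 in KD for Cish, 95.8 in KP and 60.8 in KD for Socs2, and 2.5 in WD and 33.2 in KP for Cux2. In spleen the order was Stat5b (297.8), Stat5a (135.8), Bcl6 (91.6), Igf1 (77.6) and Cish (51.9), ahead of Ghr (17.5) and Socs2 (16.0). Igfals (2.82), Cux2 (1.75) and Onecut1 were low there, and Onecut1 had a single library with 2 reads and another with 1 among 19. The organs were normalised separately, so these orders hold within each organ and no fold between them is given.

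**Figure D1:**
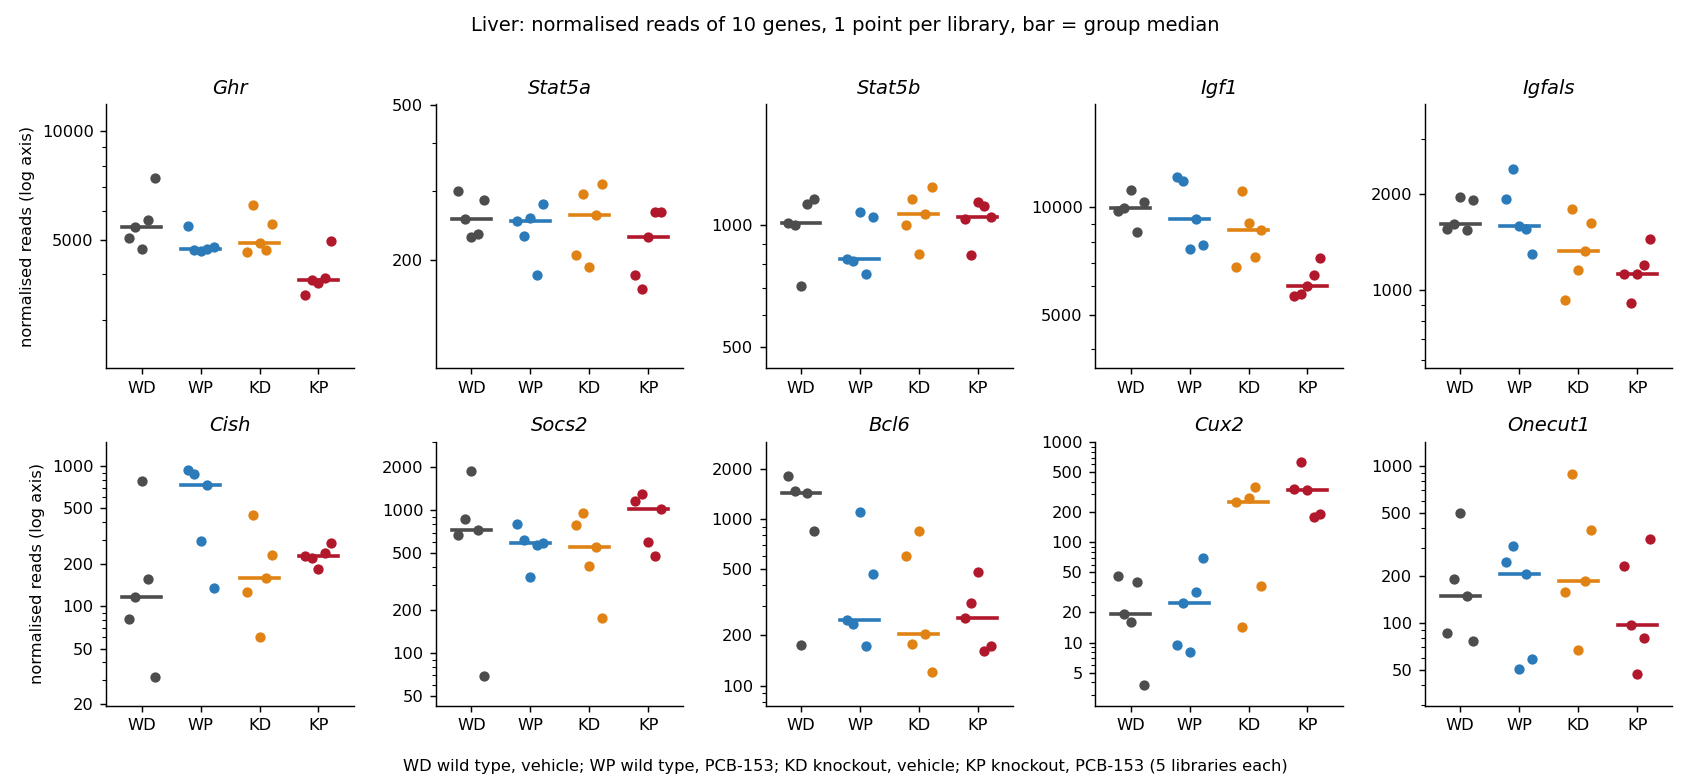
Normalised reads of the 10 genes in liver (log axes, which differ between panels); each point is 1 of 5 libraries per group and each bar a group median. Igf1 in KP lies below every WP library, Cux2 in KP lies above every WP library, and Cish, Socs2, Bcl6, Cux2 and Onecut1 spread widely within groups.

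Ghr and the STAT5 genes were called in none of the liver comparisons. Ghr had 5044, 5425, 4704, 5670 and 7402 normalised reads in WD, 5463, 4687, 4650, 4709 and 4771 in WP, 4604, 6246, 4906, 4686 and 5519 in KD, and 3517, 3872, 3777, 3921 and 4958 in KP. Of the KP libraries, 4 lay below all 15 others and the fifth lay among them. The log2 difference of KP from KD was -0.37 ± 0.12 (SE; limma adjusted p = 0.396) and that of KP from WP was -0.28 ± 0.12 (adjusted p = 0.374). Their 95% intervals, which are not adjusted for the number of genes, were wholly negative (-0.622 to -0.125 and -0.532 to -0.035). A lower Ghr in KP is thus neither shown nor excluded. Stat5a lay between 168 and 314 and Stat5b between 709 and 1240 over all 20 livers, with all 4 groups overlapping. The largest Stat5b difference was that of KP from WP, 0.20 ± 0.14 on the log2 scale with a 95% interval from -0.08 to 0.49 (adjusted p = 0.664). Stat5a and Stat5b share sequence (8.52% and 10.98% of their 50-base words occur in another gene, mainly each other or, for Stat5a, Stat3), so their split between paralogues is uncertain. Exons of Stat3 also overlap Stat5a on the opposite strand, and reads of the 2 genes there cannot be told apart without strand.

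Igf1, the endocrine product of the axis, was lower in knockout than in wild-type liver after PCB-153. It had 5656, 5725, 6000, 6439 and 7208 normalised reads in KP against 12151, 11837, 7631, 9279 and 7825 in WP, and no KP library reached the lowest WP library. The means were 6206 ± 639 (SD, n = 5) and 9745 ± 2153 (SD, n = 5), a log2 fold change of -0.63 ± 0.14 (SE) with a limma adjusted p of 0.0257. Under vehicle, KD had 6785, 11106, 9062, 7235 and 8623 and WD 9748, 9961, 11192, 8510 and 10331, which overlapped (-0.23 ± 0.14, adjusted p = 0.518). Within knockout, KP lay at -0.45 ± 0.14 from KD (limma adjusted p = 0.396), and within wild type WP lay at -0.05 ± 0.14 from WD (adjusted p = 0.926). The interaction of genotype and PCB-153 was -0.40 ± 0.20 (adjusted p = 1), so the differences under vehicle and after PCB-153 were not shown to differ. The call after PCB-153 depended on single libraries: without WP replicate 1, 2 or 4 or KP replicate 1, 2 or 3 the adjusted p was 0.0501 to 0.104, with log2 fold changes from -0.54 to -0.64.

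Igfals, whose product keeps IGF1 in the circulation, lay lower in the same direction but did not pass the test. It had 1125, 907, 1124, 1198 and 1443 normalised reads in KP, 1931, 2402, 1588, 1555 and 1295 in WP, 933, 1794, 1156, 1327 and 1626 in KD, and 1558, 1611, 1966, 1546 and 1927 in WD. Of the KP libraries, 4 lay below all 5 of WP. The log2 fold change of KP from WP was -0.58 ± 0.17 (limma adjusted p = 0.118, DESeq2 adjusted p = 0.0403), and that of KD from WD was -0.36 ± 0.17 (limma adjusted p = 0.391).

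Cux2, the repressor typical of female liver, was the other gene of the axis called in liver. It had 343, 629, 333, 180 and 191 normalised reads in KP and 9.35, 24.6, 8.0, 31.9 and 69.2 in WP, with no overlap. Mean levels were 335 ± 181 (SD, n = 5) and 28.6 ± 24.8 (SD, n = 5). The log2 fold change of KP from WP was 3.76 ± 0.78 (SE; limma adjusted p = 0.0124), a 13.6-fold difference on the scale of log2(value + 1). This difference kept an adjusted p under 0.05 in each of the 19 alternatives run, between 0.000466 and 0.0495. Under vehicle, WD had 45.8, 19.4, 15.8, 40.5 and 3.75, whereas KD had 251, 14.2, 276, 356 and 36.6. Replicates 1, 3 and 4 of KD lay above every wild-type library and replicates 2 and 5 lay among them. The log2 fold change of KD from WD was 2.43 ± 0.78 (limma adjusted p = 0.188, DESeq2 adjusted p = 0.0168), and without KD replicate 2 it was 3.13 with a limma adjusted p of 0.0386. KP lay at 1.49 ± 0.78 from KD (adjusted p = 0.519), and the interaction was 1.33 ± 1.10 (adjusted p = 1).

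The same KD replicates, 2 and 5, had the group's highest Igfals (1794 and 1626), Cish (449 and 232) and Onecut1 (887 and 391). Socs2 was highest in replicate 2 (960) but lowest in replicate 5 (177), and Igf1 in replicate 5 (8623) lay below replicate 3 (9062). Bcl6, the repressor more abundant in male liver, was lowest in replicates 2 and 5 (178 and 121, against 203 to 845 in the others). Nr1i2 was lowest in them too (449 and 626, against 759 to 969). Replicates 2 and 5 also had the highest Hsd3b5, a male-biased steroid dehydrogenase, at 414 and 607 normalised reads against 8.56 to 20.8 in replicates 1, 3 and 4. Male-biased Cyp2d9 was 4969 and 6267 in them and 1206 to 1516 in the other three. This grouping was noticed in the values and no groups were formed from it.

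Cish, the STAT5 target that inhibits the receptor, spread widely within groups. WD had 81.0, 116, 790, 157 and 31.3 normalised reads and WP 935, 878, 295, 736 and 136. KD had 126, 449, 60.8, 161 and 232, and KP 230, 220, 185, 239 and 284. Replicate 3 of WD lay above 3 of the 5 WP libraries, while KP spanned only 1.53-fold. The log2 difference of WP from WD was 1.86 ± 0.65 (limma adjusted p = 0.717), its 95% interval running from 0.52 to 3.21, and that of KP from WP was -1.05 ± 0.65 (adjusted p = 0.624). Part of its sequence (9.35% of 50-base words) recurs elsewhere and 2 predicted genes lie antisense to its exons, which matters because no source used here states whether reads were counted by strand.

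Socs2, the second inhibitor, showed the same within-group spread without a called difference between groups. WD had 674, 868, 1890, 726 and 68.8 normalised reads, WP 798, 621, 344, 569 and 596, KD 791, 960, 409, 559 and 177, and KP 1160, 1295, 604, 482 and 1023. WD alone spanned 27.5-fold, and all groups overlapped. The largest of its 4 differences was that of KP from KD, 0.77 ± 0.60 on the log2 scale (limma adjusted p = 0.64).

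Bcl6, the STAT5-opposing repressor, was high in 4 of 5 WD livers and mixed elsewhere. WD had 1826, 1479, 175, 1445 and 855 normalised reads and WP 247, 234, 1098, 173 and 468. KD had 598, 178, 845, 203 and 121, and KP 255, 312, 482, 162 and 173. Of the 15 libraries outside WD, only WP replicate 3 exceeded the 855 of WD replicate 5. Log2 differences were -1.61 ± 0.61 for KD from WD (limma adjusted p = 0.271) and -1.36 ± 0.61 for WP from WD (adjusted p = 0.717), and neither passed. Bcl6 lies 14.26 Mb from Nr1i2 on chromosome 16, and the predicted gene Gm37419 lies antisense to its exons, so the doubt about strand holds for Bcl6 too.

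Onecut1 had 85.7, 191, 501, 149 and 76.3 normalised reads in WD, 243, 310, 51.0, 205 and 59.1 in WP, 157, 887, 66.8, 184 and 391 in KD, and 231, 96.2, 47.6, 79.8 and 341 in KP. All groups overlapped, and the largest difference was that of KP from KD, -0.90 ± 0.67 on the log2 scale (limma adjusted p = 0.626). Its reads are hard to assign, since 52.29% of its 50-base words also occur in other genes, chiefly the predicted gene Gm20649, which overlaps its exons on the same strand and was itself counted at 45.6 to 690 normalised reads in liver. Onecut1 values are therefore uncertain.

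**Figure D2:**
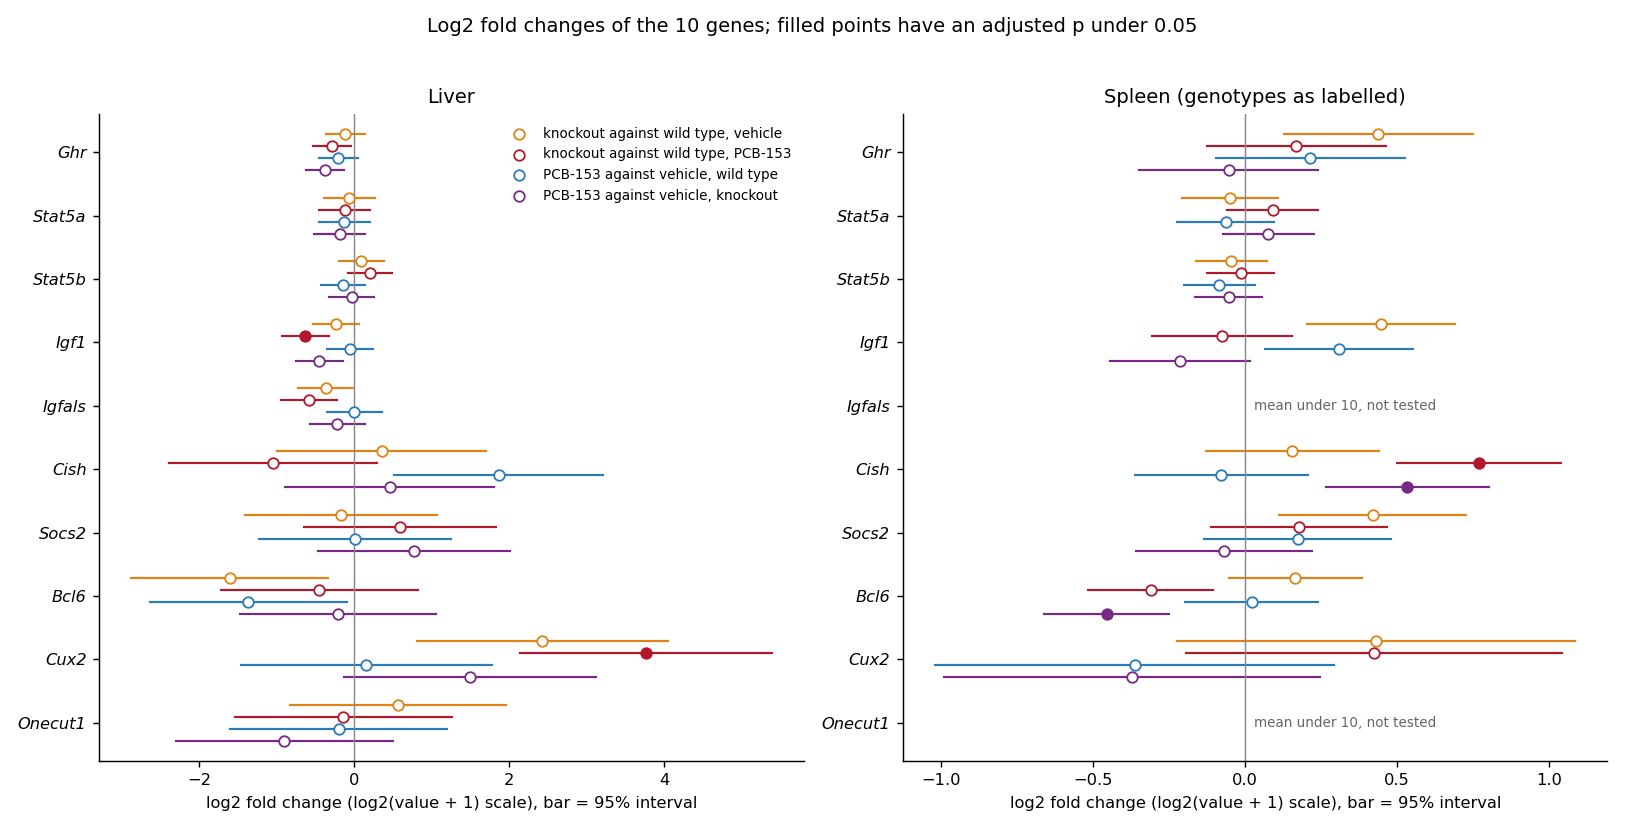
Log2 fold changes with 95% intervals for the 10 genes in 4 comparisons of liver and, on a narrower axis, of spleen; filled points passed limma at an adjusted p under 0.05. In liver only Igf1 and Cux2 in knockout against wild type after PCB-153 are filled, and in spleen Cish in KP against WP and both Cish and Bcl6 in KP against KD.

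Set against all genes tested in liver, 2 of the 10 genes were called after PCB-153, where the comparison of knockout with wild type called 1.45% of 16155 genes. The 10 were chosen with earlier results of these data known, so such counts are not evidence of an excess. Under vehicle none of the 10 was called, beside 0.607% of all genes. For PCB-153 against vehicle limma called 0% in wild type and 0% in knockout, with 1081 and 1592 genes at an unadjusted p under 0.05. DESeq2 called 1 and 63 genes there and edgeR 0 and 0. The interaction called 0% (435 unadjusted, 0 by edgeR and 0 by DESeq2). Groups did not overlap between KP and WP for 2 of the 10, Igf1 and Cux2, and for 2.59% of all genes tested. No member had groups without overlap in KD against WD, WP against WD or KP against KD, beside 3%, 0.508% and 2.42% of all genes. In the authors' deposited table for liver KP against WP, Igf1 had a log2 fold change of -0.65 (adjusted p = 0.00167), Cux2 3.55 (adjusted p = 0.000556) and Igfals -0.6 (adjusted p = 0.0463). Their table for the vehicle comparison, which lists 266 genes, held Cux2 alone among the 10 (2.9, adjusted p = 0.0189).

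The spread between liver libraries of a group, which may be technical, separated the axis into stable and variable genes. The SD of log2(value + 1) within groups was 1.17 for Cish, 1.08 for Socs2, 1.10 for Bcl6, 1.41 for Cux2 and 1.22 for Onecut1. These place all 5 at the 99.3rd to 99.7th percentile of the 16155 genes tested, whose median SD was 0.28. Ghr (0.19), Stat5a (0.26), Stat5b (0.23), Igf1 (0.24) and Igfals (0.29) lay between the 22.6th and 54.8th percentiles. In spleen the same feedback genes were ordinary: Cish had an SD of 0.22 (56.5th percentile of 19058 genes), Socs2 0.23 (59.6th) and Bcl6 0.16 (35.4th). Stat5b, with an SD of 0.06, was at the 0.6th percentile there, and Cux2, at 17.7 normalised reads on average, at the 92.2nd.

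**Figure D3:**
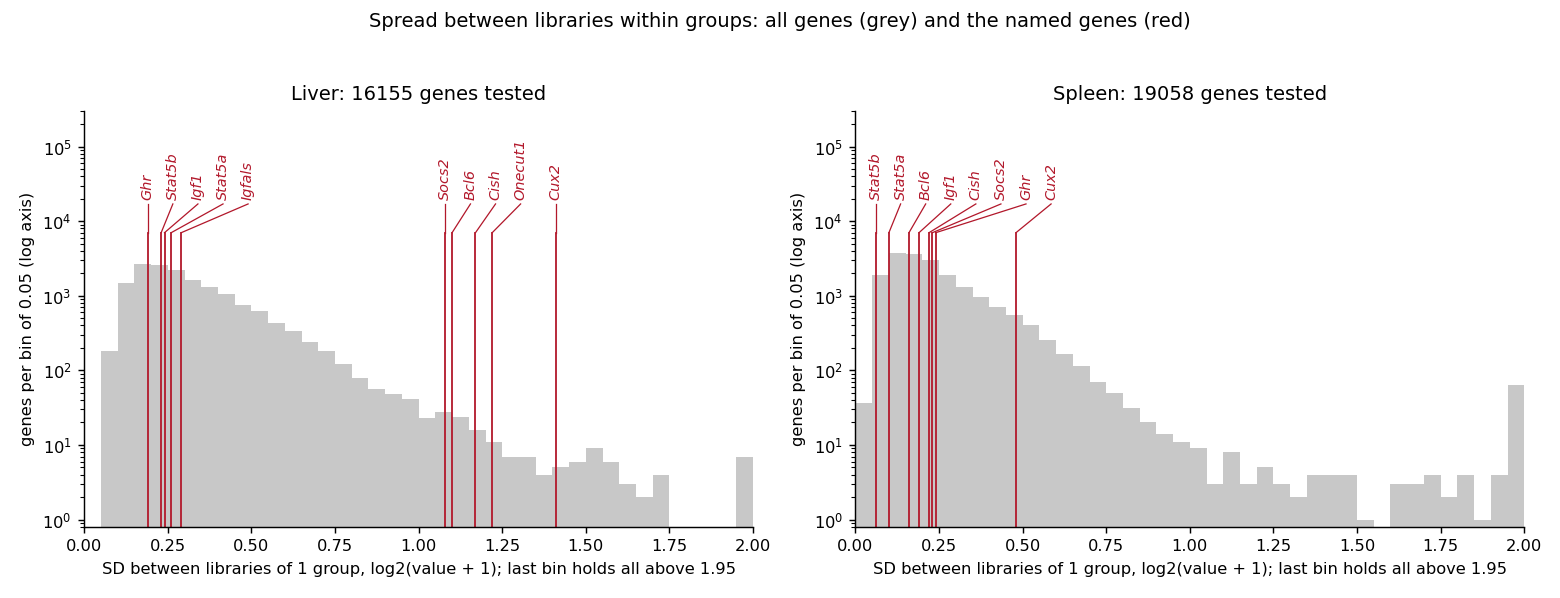
Number of genes (log axis) by the SD of log2(value + 1) between libraries of a group, in grey, with the members in red; the last bin holds every gene above 1.95. In liver 5 members lie between 0.19 and 0.29 and the other 5 between 1.08 and 1.41, while in spleen the 8 members tested lie at 0.24 or below except Cux2 (0.48).

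Pairs of these genes were then compared across the 20 livers after removal of each group's mean, with permutation within groups and adjustment over 8 pairs. Cish and Bcl6 moved in opposite directions: Pearson's r was -0.72 (permutation p = 0.0066, adjusted 0.026) and Spearman's rho -0.78 (p = 0.00054, adjusted 0.0043). The sign was negative in all 4 groups (-0.71 in WD, -0.69 in WP, -0.82 in KD, -0.89 in KP), and r was -0.71 without the 2 livers farthest from the median of Cish, WD replicates 3 and 5. WD replicate 3, for example, had the group's highest Cish (790) with its lowest Bcl6 (175), and WP replicate 3 had low Cish (295) with the group's highest Bcl6 (1098).

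Igf1 and Igfals moved together, with r of 0.80 (permutation p = 0.00059, adjusted 0.0047) and rho of 0.74 (p = 0.0028, adjusted 0.011). Their r was 0.75 to 0.86 in each of the 4 groups and 0.78 without the 2 livers farthest from the median of Igf1. Cish with Socs2 gave r of 0.61 (permutation p = 0.046, adjusted 0.073) and rho of 0.42 (p = 0.085, adjusted 0.14), and r fell to 0.21 without WD replicates 3 and 5, so that relation rests on those livers. Cish with Igf1 (r = 0.52, permutation p = 0.032, adjusted 0.064; rho = 0.56, adjusted 0.086) and Ghr with Igf1 (r = 0.48, permutation p = 0.02, adjusted 0.054; rho = 0.42, adjusted 0.12) did not pass after adjustment. Socs2 with Bcl6 (r = -0.15, rho = -0.06), Socs2 with Igf1 (r = 0.10, rho = 0.12) and Bcl6 with Cux2 (r = 0.35, rho = 0.40) had adjusted permutation p-values of 0.19 to 0.81. Without the 2 livers farthest from the median of the first gene, r was -0.51, 0.29 and 0.56 for these 3 pairs, 0.63 for Cish with Igf1 and 0.49 for Ghr with Igf1. Livers share a sequencing lane and their normalisation, and the time of day or hormone level at collection is not given in the labels.

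**Figure D4:**
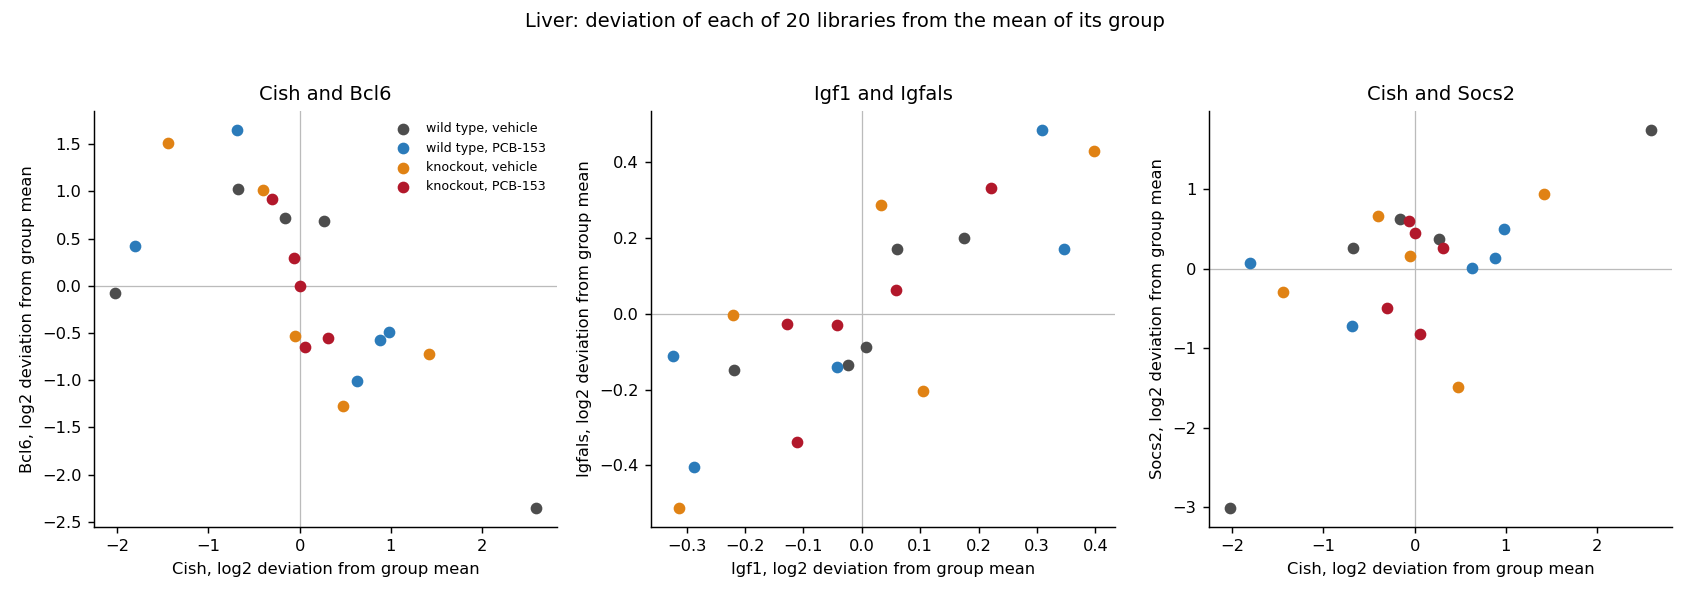
Deviation of each of 20 livers from its group's mean on the log2(value + 1) scale, coloured by group, for Cish against Bcl6, Igf1 against Igfals and Cish against Socs2. Points fall from upper left to lower right in the first (r = -0.72), rise in the second (r = 0.80), and in the third the 2 livers farthest left and right are WD replicates 5 and 3, without which r is 0.21.

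Beyond the 10 genes, 30 of 37 listed genes of growth hormone and IGF signalling could be tested in liver. Of these, 2 were called higher in KP than in WP and none lower, beside 1.45% of all genes called in either direction. Prlr, the prolactin receptor, had a mean of 3570 ± 453 (SD, n = 5) normalised reads against 2044 ± 442 (SD, n = 5), a log2 fold change of 0.82 ± 0.14 (limma adjusted p = 0.0023). Igfbp2, an IGF binding protein, had 16533 ± 3860 against 7687 ± 1669 (1.10 ± 0.20, adjusted p = 0.00425), and the lowest KP value (11668) exceeded the highest WP value (9386). The list's median was 0.10, beside 0.00 over all genes. Of 13 listed hepatic transcription factors, Trim24 alone was called, higher in KP (498 ± 61.2, SD, n = 5) than in WP (270 ± 84.4, SD, n = 5) by 0.92 ± 0.23 (adjusted p = 0.0404). In the other liver comparisons neither list had a called gene.

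Genes that depend on the sex pattern of growth hormone were counted from lists drawn up with earlier results of these data known. After PCB-153, 18 of 22 male-biased genes tested were lower in knockout and none was higher (median log2 fold change -1.93), and 12 of 25 female-biased genes were higher and none lower (1.30). Under vehicle, 10 of 22 were lower (median -1.22) and 8 of 25 higher (1.23). The median over all genes was 0.01 under vehicle and 0.00 after PCB-153, and limma called 0.607% and 1.45% of all genes there. Hsd3b5 averaged 10.9 ± 12.3 normalised reads in KP and 1333 ± 811 in WP (SD, n = 5 each), a log2 fold change of -7.09 ± 0.95 (adjusted p = 0.000236). Sult2a1, a female-biased sulfotransferase, averaged 13405 ± 3615 in KP and 530 ± 634 in WP (5.39 ± 0.73, adjusted p = 0.000261). In KP against WP, Cyp2u1, Selenbp2 and Cspg5 were lower by 2.33, 1.71 and 2.38 on the log2 scale. Slc22a26, Prom1 and Cyp17a1 were higher by 1.66, 2.04 and 2.66. For KD against WD the smallest p-values among male-biased genes were those of Egfr (-0.91 ± 0.14), Cyp2d9 (-2.28 ± 0.36), Cspg5 (-2.09 ± 0.34) and Susd4 (-1.58 ± 0.28). Among female-biased genes they were those of A1bg (3.64 ± 0.48), Prom1 (2.33 ± 0.31), Sult2a1 (4.50 ± 0.73) and Sult2a2 (3.53 ± 0.61). For PCB-153 against vehicle limma called 0 genes of either list in either genotype, where 0 of all genes passed.

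Across the 20 livers, whose groups differ, the genes most like each member were read off as a description from 10567 genes with a mean of at least 50. Nudt7, a peroxisomal hydrolase on the male-biased list, headed the lists of both Igf1 (r = 0.928) and Igfals (r = 0.951), followed by Apon (0.903) and Hsd3b2 (0.941). Cux2 was most like Trim24 (0.914) and Akr1b10 (0.905). Among the other genes that spread widely within groups, the highest r was 0.818 for Bcl6 (Zfp36l2), 0.844 for Onecut1 (B4galt1), 0.80 for Cish (Snx32) and 0.744 for Socs2 (Bbs4). Ghr was closest to Dpy19l1 (0.917), Stat5a to Fat1 (0.917) and Stat5b to Cyb5d1 (0.907).

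In spleen of the labelled knockout exposed to PCB-153 (KP), Cish was called higher against both WP and KD, and Bcl6 lower against KD alone. Cish had 505, 551, 471, 412 and 351 normalised reads in KP, 295, 308, 355, 356 and 258 in KD, 274, 292, 209, 254 and 308 in WP, and 237, 302, 263 and 326 in WD. Every KP library lay above every WP and WD library, and 2.05% of all genes tested had KP and WP groups without overlap, while the lowest of them (351) lay among the KD libraries. The log2 fold change was 0.77 ± 0.13 against WP (SE; limma adjusted p = 0.0116) and 0.53 ± 0.13 against KD (adjusted p = 0.0288). Bcl6, which in spleen is the master repressor of germinal centre B cells, had 423, 556, 512, 431 and 636 in KP, 692, 745, 645, 674 and 715 in KD, 566, 593, 671, 685 and 630 in WP, and 653, 585, 697 and 548 in WD. No KP library reached the lowest KD library, as for 4.62% of all genes in either direction (-0.46 ± 0.10, adjusted p = 0.0259), whereas KP and WP overlapped (-0.31 ± 0.10, adjusted p = 0.222). The interaction was 0.61 ± 0.19 for Cish and -0.48 ± 0.14 for Bcl6, each with an adjusted p of 0.422.

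These calls were made where the spleen libraries themselves differed. The comparison of KP with KD called 5.3% of 19058 genes and that of KP with WP 0.157%, with 2 and 1 of the 8 members tested called. Summed markers of the exocrine pancreas (6 genes) were 5679 and 44830 normalised reads in KP replicates 1 and 4 and 485 to 781 in the other 17 libraries. Of 6 B cell markers all had lower means in KP than in KD on the log2 scale, 5 of them called by limma, and their sums were 17305, 28087, 21535, 17806 and 28802 in KP and 27817 to 37715 in the other groups. All 7 neutrophil and all 6 erythroid markers had higher means in KP than in KD, 6 and 3 of them called. Of 5 germinal centre B cell markers, 2 had higher and 3 lower means in KP than in KD, with none called (median log2 fold change -0.34). Fewer cells of a type and less RNA per cell cannot be told apart in whole organs, and the part of these markers in the result was not tested. Without KP replicates 1 and 4, a choice made after the values were seen, Cish remained at 0.76 against WP (adjusted p = 0.0335) and at 0.53 against KD (adjusted p = 0.171), and Bcl6 was at -0.29 against KD (adjusted p = 0.194), while 23 genes were called in place of 1010. Leaving out any of KD replicates 3, 4 or 5 or KP replicates 1, 3 or 4 singly ended both calls against KD, KD replicate 2 ended that of Cish, and WP replicate 3 ended that of Cish against WP (adjusted p = 0.0506).

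**Figure D5:**
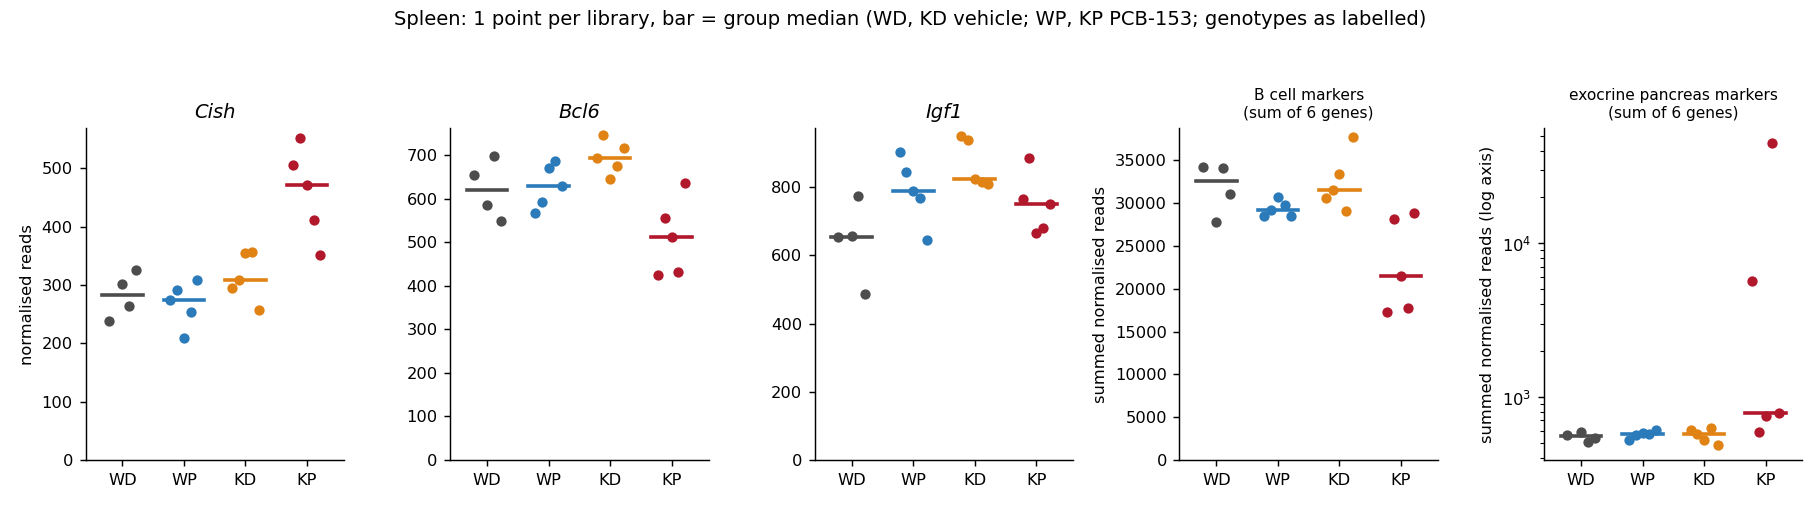
Normalised reads of Cish, Bcl6 and Igf1 in spleen and the summed normalised reads of 6 B cell and 6 exocrine pancreas markers (last panel on a log axis), 1 point per library with group medians. Cish in KP lies above all libraries labelled wild type, Bcl6 in KP lies below all of KD, and KP replicates 1 and 4 stand apart in the last panel at 5679 and 44830.

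Igf1 had the smallest unadjusted p of the 8 members in the spleen comparison of labelled knockout with labelled wild type under vehicle. It had 949, 939, 825, 816 and 809 normalised reads in KD and 654, 656, 776 and 486 in WD, and the groups did not overlap, as for 3.57% of all genes tested there. The log2 difference was 0.45 ± 0.12, but the limma adjusted p was 0.302 in a comparison that called 0.0315% of genes, and it is not counted as a change. In the same comparison summed macrophage markers were 17141 to 22385 in KD and 14195 to 16998 in WD (10 genes, 8 tested, all 8 with higher means). Summed neutrophil markers were 3127 to 4797 in KD and 5470 to 7316 in WD (7 genes, all with lower means). None of these markers was called by limma. DESeq2 gave adjusted p-values under 0.05 for Marco (0.00354), S100a9 (0.00136), Mpo (0.0198), Camp (0.0388) and S100a8 (0.0461), and not for the others. The part of these markers in the Igf1 difference was not tested. Igf1 in WP (904, 845, 790, 770 and 645) and in KP (766, 886, 666, 680 and 749) overlapped both groups. Ghr and Socs2 lay at 0.44 ± 0.15 (adjusted p = 0.374) and 0.42 ± 0.15 (adjusted p = 0.383) in the same comparison, with all groups overlapping (Ghr 97.7 to 224, Socs2 97.7 to 201 normalised reads over 19 spleens). Stat5a (828 to 1075) and Stat5b (1508 to 1821) had log2 differences between -0.09 and 0.09 in the 4 comparisons. Cux2 ranged from 7.46 to 38.9 and its KD libraries (18.2 to 25.6) lay above all of WD (14.6 to 17.6), at 0.43 ± 0.32 (adjusted p = 0.627). Igfals (2.72 to 19.1) and Onecut1 were below the mean of 10 needed for the test. PCB-153 against vehicle in labelled wild type called 0% of genes by limma (727 unadjusted, 0 by edgeR, 3 by DESeq2), with groups that did not overlap for 1.39%, and the interaction called 0% (1877 unadjusted, 0 by edgeR, 34 by DESeq2).

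Of 34 tested genes of the growth hormone and IGF list, Gh was the single called gene in spleen. The call was in KP against KD, where 5.3% of 19058 genes were called, so 1 of 34 does not set the list apart. Gh was lower in KP than in KD by -1.25 ± 0.31 on the log2 scale (limma adjusted p = 0.0302). It had 6.36 to 15.8 normalised reads in KP, 18.5 to 35.4 in KD, 9.32 to 20.4 in WP and 9.40 to 29.2 in WD, and 0 in every liver. Gh lies on chromosome 11 (106300271 to 106301865, minus strand, GRCm38), 9.5 kb downstream of the B cell gene Cd79b on the same strand. Cd79b was lower in the same comparison by -0.60 ± 0.13 (adjusted p = 0.0247), and whether reads counted for Gh came from that neighbour was not tested. In the authors' deposited tables, Cish had log2 fold changes of 0.77 in spleen KP against WP, where 219 genes are listed and no other member is, and 0.54 against KD (adjusted p = 0.00333), and Bcl6 had -0.44 against KD (adjusted p = 0.00215).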

How the data were processed

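For each organ the signal deposited by the authors is normalised reads for 54735 genes, where every value is a gene's read count divided by 1 size factor per library. Reads were recovered by division, and 100% of values above 0 came out whole within 0.05 reads. Columns were assigned to samples by their names, and none was unmatched. Per the submitters' processing notes, the tools were STAR 2.6.0 and featureCounts on mm10, with FastQC and DESeq2 ("3.8"). No source used here gives their options. The labels name 2 versions of the TruSeq kit, 1 of them stranded, and liver and spleen were run in separate lanes. The authors also deposited DESeq2 comparisons with log2 fold changes, p-values and a signal column of base means over all libraries of an organ, of which liver KD against WD and spleen KP against WP hold calls at 0.05 alone. A column of test scores in those deposited tables was not used.

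Genes with a mean of at least 10 normalised reads entered limma 3.58.1 (eBayes with trend, R 4.3.3) as log2(value + 1), in 1 fit per organ over its 4 groups, two-sided, with Benjamini-Hochberg adjustment over all genes tested. A gene is called when its adjusted p is under 0.05. The scale understates changes of low genes. Alternatives were pseudocounts of 0.5 and 5, no minimum mean or 50, quantile normalisation, the 2 compared groups alone, a block for the replicate number, leaving out each library, and edgeR 4.0.16 and DESeq2 1.42.0 on the recovered reads. Leaving out KP replicates 1 and 4 in spleen was added after the data were seen. Relations used 100000 permutations within groups. A comparison of 2 groups had a median standard error of 0.17 (liver) or 0.123 to 0.13 (spleen) on the log2 scale. Libraries of a group differed by more than counting error, and the lowest chi-square over its degrees of freedom was 9.98 (liver) and 4.67 (spleen). The fit was tested on simulated reads.

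The members and gene lists were chosen with earlier results of these data known. Named are the 10 members and Nr1i2 in every comparison, every called gene of the growth hormone and IGF list and of the hepatic transcription factor list, up to 4 called genes with the smallest p of each sex-biased list, and the 2 genes most like each member in liver (for some members the first alone is given). A planned comparison of the Stat5a and Stat5b proteins was not run.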

Additional observations from a re-analysis of the deposited data

Results flagged for a closer look

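Of 78 groups of 4 or 5 libraries with values above 0 (10 genes in 2 organs), 8 held a library whose distance from its neighbour was large against the group's range by Dixon's test. Chance alone flags about 1 in 20 such groups where values are normally distributed, which was not shown for these read values. A group with a single library above 0 is always flagged, as for Onecut1 in spleen. The count of flags is therefore not evidence of an excess.

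In liver these were Ghr in WP replicate 1 (5463 normalised reads, the other 4 between 4650 and 4771) and in KP replicate 5 (4958, the others 3517 to 3921), and Cish (790, the others 31.3 to 157) and Onecut1 (501, the others 76.3 to 191), both in WD replicate 3. That liver also had the highest Socs2 (1890) and the lowest Bcl6 (175) of its group. Without WD replicate 3, Cish lay at 2.51 on the log2 scale in WP against WD and Bcl6 at -1.95, with limma adjusted p-values of 0.183 and 0.183.

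In spleen KP, Igfals was 19.1 in replicate 4 (the others 6.70 to 8.60) and Cux2 38.9 in replicate 2 (the others 10.6 to 17.2). Onecut1 was 2.23 in WP replicate 1 and 1.06 in KP replicate 4, which are 2 reads and 1 read where every other library had 0.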

How the results depend on the processing

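Every comparison rests on 4 or 5 libraries a group, so single libraries weigh heavily, and depth limits chiefly Igfals, Cux2 and Onecut1 in spleen. For the 90 member differences, 788 of 811 values under other settings kept direction and call, 13 changed sign, 8 lost a call and 2 gained one. Most of the 90 were not called at the outset, and a missing adjusted p counted as kept for those. The first count therefore says little about how firm the calls are. Among 1056 values with a library left out, 20 lost a call. Numbers of genes called depended on the setting. DESeq2 called in liver 275 for knockout against wild type under vehicle, 380 after PCB-153, 1 for PCB-153 in wild type and 63 in knockout, and in spleen 39, 228, 3, 2027 and, for the interaction, 34. A minimum mean of 50 gave 64 in liver and 3 in spleen under vehicle. With no minimum mean, 1 gene was called for PCB-153 in knockout liver and 232 in labelled knockout spleen. A fit of the 2 compared groups called 14 and 184 genes in spleen for KP against WP and KP against KD, edgeR 65 for the former, and leaving out KP replicates 1 and 4 gave 79, 23 and, for the interaction, 5.

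Members called became 1 under DESeq2 for liver KD against WD (Cux2) and 3 for liver KP against WP (with Igfals). They became 1 in liver KP against WP with no minimum mean or only the 2 groups, as Igf1 passed to adjusted p-values of 0.0515 and 0.0536. In spleen they became 0 with only the 2 groups in KP against WP and in KP against KD, 1 with no minimum mean and 0 without KP replicates 1 and 4 in KP against KD.

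Leaving out each library gave 49 to 148 genes called in liver KD against WD (0 to 1 members), 124 to 337 in KP against WP (1 to 3 members) and 0 to 3 in KP against KD. In spleen it gave 4 to 22 in KD against WD, 10 to 119 in KP against WP (0 to 1 members), 10 to 3704 in KP against KD (0 to 2 members) and 0 to 2 for the interaction. The cause of these shifts was not tested.

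The replicate number as a block changed no member's call. It gave 18 genes for spleen KP against WP in place of 30, and moved no other count by more than 1.5 times. In no comparison did every same-numbered pair deviate together with r over 0.1, so the numbers were not taken to pair the samples. Liver WD and KD came nearest, with r of 0.04 to 0.27 and 4 of 5 pairs over 0.1.

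Differences near 0 changed sign under other settings. In liver these were Cish in KD against WD (-0.20 by edgeR and -0.20 by DESeq2), Socs2 in WP against WD (-0.000117 at a pseudocount of 5, -0.53 by edgeR and -0.53 by DESeq2) and Igf1 in WP against WD (0.015 after quantile normalisation). In spleen they were Stat5b in KP against WP (0.0095) and Socs2 in KP against KD (0.046), both without KP replicates 1 and 4. The Cux2 interaction in spleen was 0.10 after quantile normalisation, 0.052 with the block, 0.018 by edgeR, 0.034 by DESeq2 and 0.19 without KP replicates 1 and 4.

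Leaving out single libraries also turned signs, with log2 ranges in liver KD against WD of -0.024 to 0.17 for Stat5b, -0.92 to 0.27 for Socs2, -0.15 to 1.00 for Cish and -0.14 to 0.035 for Stat5a. In liver KP against WP the range was -0.50 to 0.20 for Onecut1. In liver WP against WD they were -0.12 to 0.10 for Igfals, -0.49 to 0.22 for Onecut1, -0.74 to 0.45 for Socs2, -0.36 to 0.49 for Cux2 and -0.14 to 0.029 for Igf1. In liver KP against KD they were -0.53 to 0.17 for Bcl6 and -0.11 to 0.040 for Stat5b, and for the liver interaction -0.16 to 0.032 for Stat5a. In spleen they were -0.029 to 0.0088 for Stat5b in KP against WP, -0.036 to 0.079 for Bcl6 and -0.16 to 0.0071 for Cish in WP against WD, -0.11 to 0.036 for Ghr in KP against KD, and -0.30 to 0.16 for the Cux2 interaction. The r of Socs2 with Bcl6 ranged from -0.32 to 0.16 and that of Socs2 with Igf1 from -0.012 to 0.26. None of these differences or relations was called.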
